A study of Mus musculus with 36 samples.

Results

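The mitochondrial ribosome builds the proteins that mitochondrial DNA encodes, and its own proteins come from nuclear genes named Mrpl for the large subunit and Mrps for the small subunit. Members were the gene IDs in the deposited count table whose mouse symbol begins with Mrpl or Mrps followed by a digit, leaving out pseudogene names that end in -ps. This gave 78 genes, 49 of the large subunit and 29 of the small subunit, among 32285 mouse gene IDs. All 78 passed the filter on low counts in every fit.

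RNA was sequenced from AT-3 and E0771, 2 mouse breast cancer cell lines, in a study of the actin-regulated transcription factor SRF, cell stiffness and calcium and potassium levels. Cells of each line received 1 of 6 treatments for 24 h: DMSO, the solvent control; 10 µM NS11021, an opener of the BK potassium channel; 10 µM BMS204352, which opens BK and KCNQ potassium channels; 40 mM KCl; KCl with NS11021; or KCl with BMS204352. No group controls for the added osmolarity or chloride of KCl. The 36 libraries, 3 for each of 12 groups, had 31.2 to 52.6 M counts each. The labels do not say whether replicates were separate cultures, so p-values measure the spread between these libraries only. AT-3 expressed Krt14 (1449 CPM, counts per M of library total, in DMSO), Cdh1 (450 CPM) and Epcam (122 CPM). In E0771 these 3 epithelial genes stood at 1.41 CPM or less and Krt8 at 202 CPM. Summed over the listed epithelial markers, DMSO libraries held 2145 to 2292 CPM in AT-3 and 202 to 207 CPM in E0771. The sum does not mean that each marker was lower in E0771, since mean Krt8 in DMSO was higher there than in AT-3. Fibroblast markers summed to 17.0 to 20.4 CPM in AT-3 and 174 to 193 CPM in E0771. The leukocyte gene Ptprc was at 0 counts in the DMSO libraries of both lines, while all leukocyte markers summed to 4.34 to 5.55 CPM in AT-3 and 4.83 to 5.32 CPM in E0771.

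In mitochondria, the large subunit joins amino acids and the small subunit reads the messenger. Many of these proteins have a counterpart in the bacterial ribosome, while others are found only in mitochondria. The ribosome makes core subunits of the respiratory chain and of ATP synthase, so its loss in inherited disease lowers respiration. Names do not always give the place: the products of Mrps30 and Mrps18a are found in the large subunit, Mrpl58 is a peptidyl-tRNA hydrolase that is also a ribosomal protein, and the product of Mrps36 is now placed in the oxoglutarate dehydrogenase complex. By name, 46 of the 78 genes have a bacterial counterpart, 30 are mitochondria-specific, and Mrpl55 and Mrps36 were put in neither class.

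The bases just before the start of transcription are shown for the 3 genes with the largest falls in E0771 under KCl among those with at least 100 upstream bases that lie in no annotated exon and that hold a match to a motif of NRF1, ETS or YY1, factors known to bind promoters of such genes. The same stretch is shown for Mrps6, which rose most. Sequences are from RefSeq (GRCm38.p6), 5′ to 3′ on the gene's strand, and lie before the start and in no GENCODE exon. Capitals mark matches on either strand to CCGGAAG (ETS) or GGGCGG (GC box), which can overlap each other, and none of the stretches matched the 10-letter NRF1 or YY1 motif searched. The Mrps22 stretch lies at chr9:98601680-98601929, minus strand, that of Mrpl17 at chr7:105811100-105811337, minus strand, that of Mrpl58 at chr11:115403502-115403751, plus strand, and that of Mrps6 at chr16:92058086-92058269, plus strand.
Mrps22: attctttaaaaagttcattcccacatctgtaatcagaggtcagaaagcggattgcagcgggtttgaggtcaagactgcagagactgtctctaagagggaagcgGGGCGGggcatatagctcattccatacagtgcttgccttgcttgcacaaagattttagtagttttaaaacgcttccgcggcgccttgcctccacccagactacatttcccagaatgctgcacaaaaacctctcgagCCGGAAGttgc
Mrpl17: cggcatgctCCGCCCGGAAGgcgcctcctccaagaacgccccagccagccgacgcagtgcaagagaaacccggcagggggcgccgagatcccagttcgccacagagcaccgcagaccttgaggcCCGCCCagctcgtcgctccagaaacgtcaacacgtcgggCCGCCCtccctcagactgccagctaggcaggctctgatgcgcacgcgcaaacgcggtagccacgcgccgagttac
Mrpl58: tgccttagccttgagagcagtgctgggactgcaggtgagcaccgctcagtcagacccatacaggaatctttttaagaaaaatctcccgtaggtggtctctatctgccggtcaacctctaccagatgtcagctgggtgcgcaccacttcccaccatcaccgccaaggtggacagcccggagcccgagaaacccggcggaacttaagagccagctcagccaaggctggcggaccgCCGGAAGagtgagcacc
Mrps6: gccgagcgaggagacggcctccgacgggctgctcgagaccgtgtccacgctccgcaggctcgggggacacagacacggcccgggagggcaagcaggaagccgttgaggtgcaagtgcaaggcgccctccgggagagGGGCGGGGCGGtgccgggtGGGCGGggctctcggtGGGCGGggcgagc

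Mrps22, Mrpl17 and Mrpl58 each hold 1 ETS match in these bases. The choice of these genes fixed this, since each had to hold a match and none held NRF1 or YY1. Mrps6 was shown without that requirement and holds no ETS match, so the stretches do not compare falling with rising genes. GC boxes number 1 in Mrps22, 3 in Mrpl17, 0 in Mrpl58 and 4, partly overlapping, in Mrps6. A RefSeq window of 300 bases, 250 before and 50 after the start, was found for 69 of the 78 genes. The ETS letters occurred in 36.2% of these 69 windows and in 9.12% of 27025 mouse promoter windows of that length. The NRF1 motif occurred in 4.35% against 0.977%, the YY1 motif in 7.25% against 0.899%, and the GC box in 49.3% against 35.9%. Genes lower in E0771 under KCl held the ETS letters in 12 of 39 windows and genes that did not pass the test in 12 of 26. The GC box was in 22 of 39 against 10 of 26, and the YY1 motif in 4 of 39 against 1 of 26. The NFAT5 consensus (TonE), a site known from genes of the hypertonic response, was in 0 of the 69 windows and in 4.98% of all. A match says only that the letters are there.

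Levels were compared between genes as CPM per kb of merged exons in DMSO libraries (mean ± SD, n = 3). The large subunit genes had a median of 20.2 in AT-3 and 17.2 in E0771, and the small subunit genes 12.5 and 12.7. In AT-3, Mrpl12, whose product forms the stalk that recruits translation factors, was highest at 131 ± 2.53 CPM per kb of merged exons, ahead of Mrpl54 at 95.3 ± 4.03 and Mrpl38 at 64.2 ± 1.06. Mrps21 (64.0 ± 3.91), Mrps12 (62.5 ± 1.81) and Mrps24 (54.4 ± 1.38) led the small subunit, and the first pair of these lay within their spread. The lowest were Mrpl48, Mrpl47 and Mrpl23 (5.70, 5.48 and 5.08 CPM per kb) and Mrps35, Mrps30 and Mrps10 (4.24, 4.22 and 4.14).

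In E0771 Mrpl12 was again highest by merged exons (104 ± 2.44 CPM per kb), followed by Mrpl2 (75.04 ± 1.90) and Mrpl34 (63.3 ± 1.86). Mrps21 (58.9 ± 2.16) led Mrps15 (36.2 ± 1.25) and Mrps7 (34.4 ± 1.03). Mrpl33, Mrpl48 and Mrpl47 (5.08, 3.83 and 3.78 CPM per kb) and Mrps30, Mrps10 and Mrps14 (5.18, 5.11 and 4.29) were lowest. The ranks depend on the length used. Per kb of the principal transcript alone, Mrpl42 was first in both lines (206.9 in AT-3 and 175.1 in E0771), with Mrpl12 next in AT-3 (152.7) and below Mrpl52 (130.4) in E0771 (120.7), while Mrps21 still led the small subunit. On that scale Mrpl33 stood at 77.9 in E0771 and Mrps10 at 40.6, and Mrpl23 at 35.8 in AT-3.

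The genes of both subunits together took 0.345 to 0.350% of all counts in E0771 DMSO libraries and 0.2996 to 0.3099% in KCl libraries, without overlap. The share was 0.298 to 0.303% in KCl with NS11021 and 0.304 to 0.326% in KCl with BMS204352, and 0.337 to 0.354% with either compound alone. In AT-3 the share ran from 0.359 to 0.409% over all 18 libraries, and the KCl libraries (0.359 to 0.393%) overlapped DMSO (0.378 to 0.409%). The ratio of large to small subunit counts was 1.92 to 1.97 in E0771 DMSO and 1.94 to 1.95 in KCl, and lay between 2.03 and 2.11 in every AT-3 library. The lowest ratio, 1.80, was that of E0771 BMS204352 replicate 3. In bulk RNA, fewer cells of a kind and less RNA per cell cannot be told apart.

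**Figure D1:**
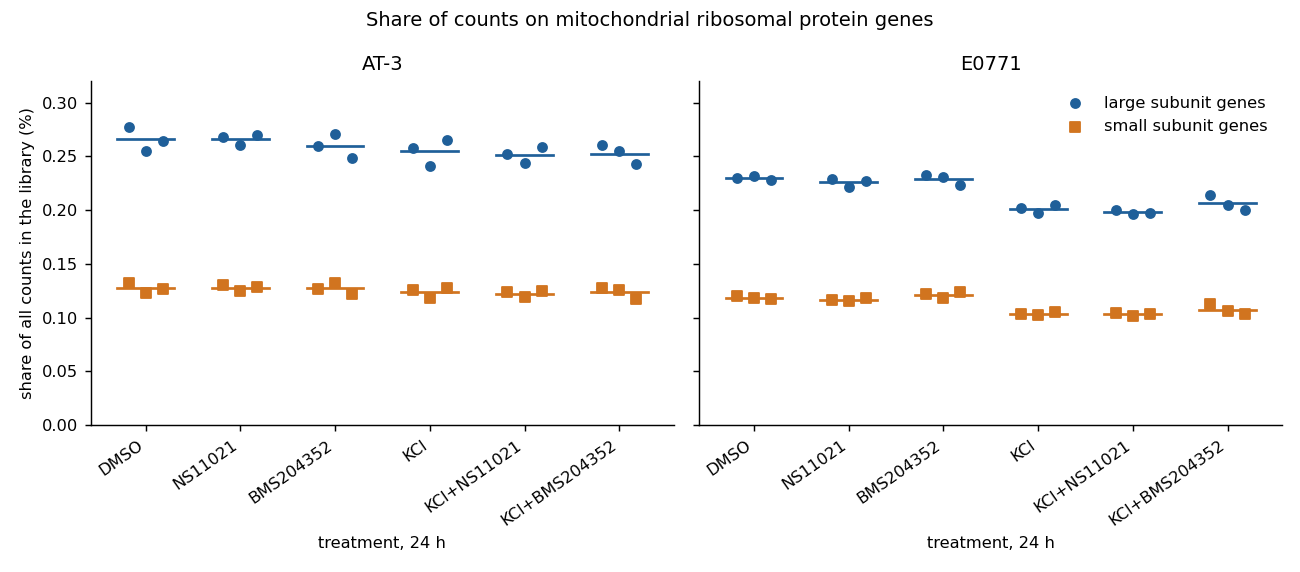
Share of all counts (%) on the 49 large subunit genes (circles) and 29 small subunit genes (squares) in each library, by treatment and cell line, with lines at the mean of 3 libraries. In E0771 every library with KCl lies below every library without it for both subunits, while the AT-3 groups overlap.

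Under KCl, genes of both subunits were lower in E0771. Of the 78 genes, 44 fell and 4 rose at an adjusted p below 0.05 (edgeR's quasi-likelihood test, Benjamini-Hochberg over all genes), against 36.4% of the 13357 genes tested that changed at all, 18.6% lower and 17.8% higher. The falls covered 25 of 49 large and 19 of 29 small subunit genes, and the rises 2 of each. Of genes with a bacterial counterpart 26 of 46 fell and 3 rose, and of mitochondria-specific genes 17 of 30 fell and 1 rose. The median log2 change was -0.22 over the 78 genes and -0.01 over all genes tested, and 66 of the 78 had a change below 0. The changes were small in size, with the largest fall at -0.58 on the log2 scale. The 3 KCl libraries lay wholly below DMSO in CPM for 50 genes and wholly above for 4, against 26.7% and 24% of all genes tested.

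The largest fall was that of Mrpl41, a mitochondria-specific protein of the large subunit. It measured 29.2, 27.8 and 27.6 CPM in the DMSO libraries and 18.2, 17.4 and 20.7 CPM in the KCl libraries of E0771. The groups did not overlap, and the log2 change was -0.58 ± 0.08 (SE; adjusted p = 1.7e-06, edgeR). Mrpl44, which carries an RNase III-like fold and is mutated in a childhood cardiomyopathy, went from 25.5, 24.0 and 21.9 CPM to 16.4, 18.5 and 18.6 CPM, with no overlap and a log2 change of -0.41 ± 0.08 (edgeR adjusted p = 0.000235). Of Mrpl44's exon bases 7.66% lie over Wdfy1 on the other strand, which also fell (-0.38 ± 0.07). Mrpl12, the gene with the highest level, went from 155, 159 and 163 CPM to 122, 128 and 133 CPM. Every KCl library of Mrpl12 was below every DMSO library, at a log2 change of -0.30 ± 0.05 (edgeR adjusted p = 1.8e-05).

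Among small subunit genes, Mrps26 (mitochondria-specific) measured 68.0, 71.6 and 67.9 CPM in DMSO and 47.6, 44.7 and 48.0 CPM in KCl, again without overlap, a log2 change of -0.55 ± 0.07 (edgeR adjusted p = 9.82e-08). Mrps22, a mitochondria-specific protein whose loss in patients causes a respiratory chain deficiency, went from 49.5, 46.5 and 47.5 CPM to 34.9, 30.9 and 34.3 CPM. All 3 KCl libraries of Mrps22 were lower than all 3 DMSO libraries (log2 change -0.51 ± 0.07, edgeR adjusted p = 3.09e-07). Mrps10 and Mrps16, counterparts of bacterial ribosomal proteins S10 and S16, fell by 0.48 ± 0.07 and 0.46 ± 0.08 on the log2 scale. Other falls with an adjusted p below 0.001 included Mrps18b (-0.40 ± 0.08), Mrps24 (-0.39 ± 0.07), Mrpl17 (-0.38 ± 0.06) and Mrpl37 (-0.32 ± 0.06).

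**Figure D2:**
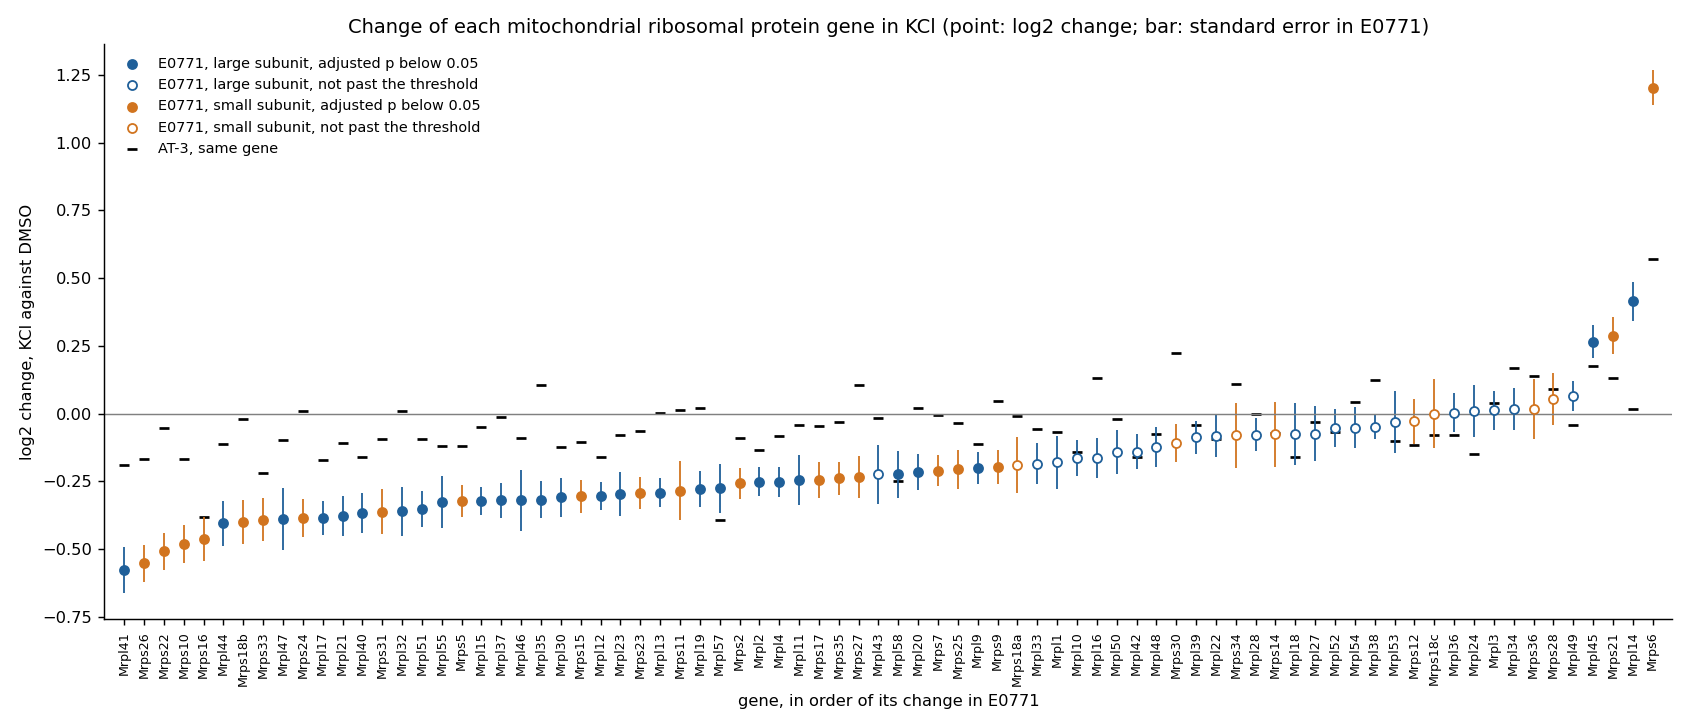
Log2 change in KCl against DMSO of each of the 78 genes in E0771 (points with standard errors; filled where the adjusted p is below 0.05) and in AT-3 (black dashes), in the order of the E0771 change. Most points lie below 0, from Mrpl41 at -0.58, and Mrps6 stands alone at 1.203.

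The 3 paralogs of bacterial S18 differed in value: Mrps18b fell, while Mrps18a had a log2 change of -0.19 ± 0.10 (adjusted p = 0.16, edgeR) and Mrps18c of 0.00 ± 0.13, neither past the threshold. Mrps30 (-0.11, adjusted p = 0.234), Mrps36 (0.02), Mrps28 (0.05) and Mrps12 (-0.03) also missed it, so placing Mrps30 and Mrps18a in the large subunit would alter no call. Mrpl58 fell by 0.22 on the log2 scale with an adjusted p of 0.0437 (edgeR), and its call was lost with DESeq2, with DESeq2's size factors, and when any 1 of DMSO replicates 1 and 2 and KCl replicates 1 and 2 was left out.

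Against the general fall, 4 genes rose in E0771: Mrps6, Mrpl14, Mrps21 and Mrpl45. Mrpl14, whose product sits at the face between the subunits, measured 26.04, 30.1 and 26.9 CPM in DMSO and 36.2, 37.0 and 36.7 CPM in KCl. The groups did not overlap (log2 change 0.41 ± 0.07, edgeR adjusted p = 2.46e-05). Mrpl45, which lies at the exit tunnel and helps to anchor the ribosome to the inner membrane, went from 43.7, 45.1 and 45.2 CPM to 53.2, 53.2 and 53.5 CPM (log2 change 0.27 ± 0.06). Mrps21, the counterpart of bacterial S21, went from 44.1, 41.7 and 44.8 CPM to 53.6, 51.3 and 53.3 CPM (log2 change 0.29 ± 0.07); neither pair of groups overlapped. Of Mrpl14's exon bases, 11.2% lie over Tmem63b, on the other strand, which also rose (log2 change 0.20, adjusted p = 0.00705).

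**Figure D3:**
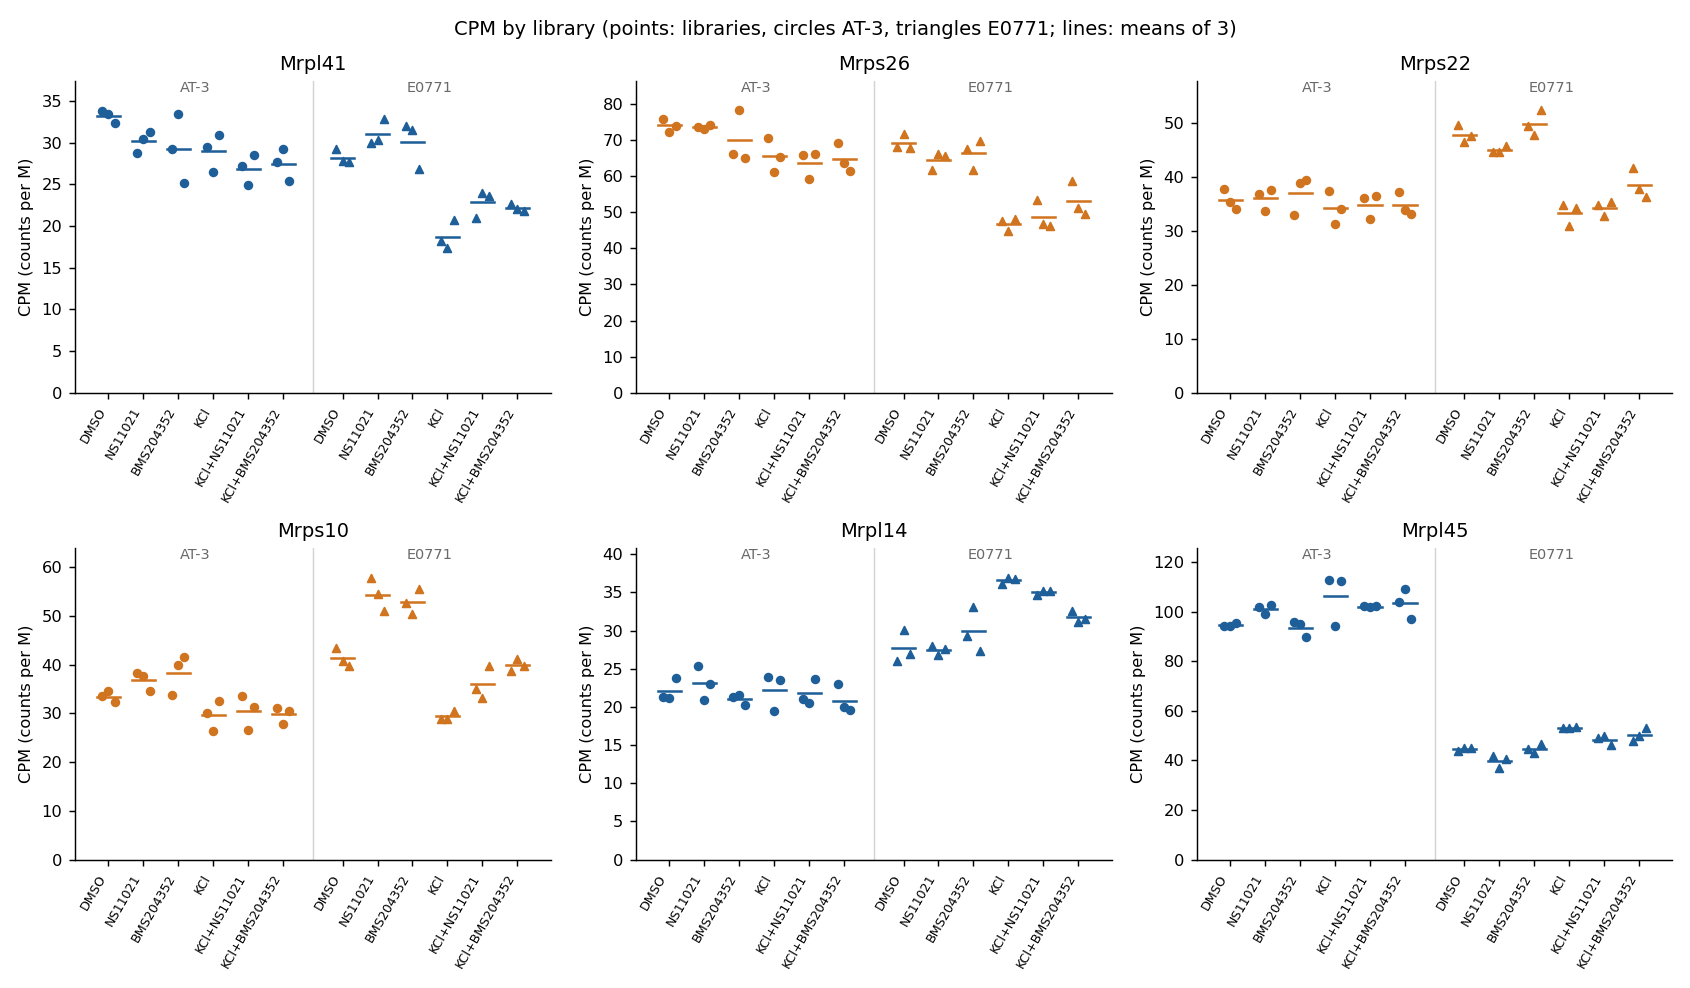
CPM by library for 4 genes that fell and 2 that rose under KCl in E0771 (circles AT-3, triangles E0771; lines are means of 3 libraries; large subunit blue, small subunit orange). The E0771 KCl libraries of Mrpl41, Mrps26, Mrps22 and Mrps10 lie below their DMSO libraries and those of Mrpl14 and Mrpl45 above.

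Mrps6, the counterpart of bacterial S6, rose most. In E0771 it measured 33.3 CPM in each of the 3 DMSO libraries and 72.7, 79.1 and 76.7 CPM in KCl, a 2.30-fold rise (log2 change 1.203 ± 0.06, edgeR adjusted p = 2.23e-15). In AT-3 it measured 20.6, 18.04 and 19.1 CPM in DMSO and 29.2, 28.7 and 27.5 CPM in KCl, a 1.49-fold rise (log2 change 0.57 ± 0.08, adjusted p = 0.000226). The libraries of the compared groups did not overlap in either line, and the rise was larger in E0771 (difference of log2 changes 0.63 ± 0.10, adjusted p = 4.68e-05).

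Mrps6 shares its first exon with Slc5a3, the sodium-dependent myo-inositol carrier through which cells take up an osmolyte. Both genes lie on the plus strand of chromosome 16. RefSeq places the start of Mrps6 at 92058336 and that of Slc5a3 at 92058322, 14 bases apart (GRCm38.p6), and in GENCODE the genes share 159 exon bases, 10.4% of those of Mrps6. Slc5a3 rose as well, from 41.6, 45.4 and 46.3 CPM to 132, 153 and 128 CPM in E0771 (3.12-fold, adjusted p = 2.3e-08) and 2.68-fold in AT-3 (adjusted p = 0.00337). The 2 genes did not move alike in every group: with NS11021 added to KCl in E0771, Slc5a3 rose further (log2 change 0.51 ± 0.11, adjusted p = 0.00415) while Mrps6 fell (-0.20 ± 0.06, adjusted p = 0.0288). That Mrps6 call was lost when any 1 of KCl replicates 2 and 3 and KCl with NS11021 replicates 1 and 2 was left out. Reads in the shared exon cannot be assigned to 1 gene from this table, so how much of the Mrps6 count comes from Slc5a3 transcripts was not tested.

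**Figure D4:**
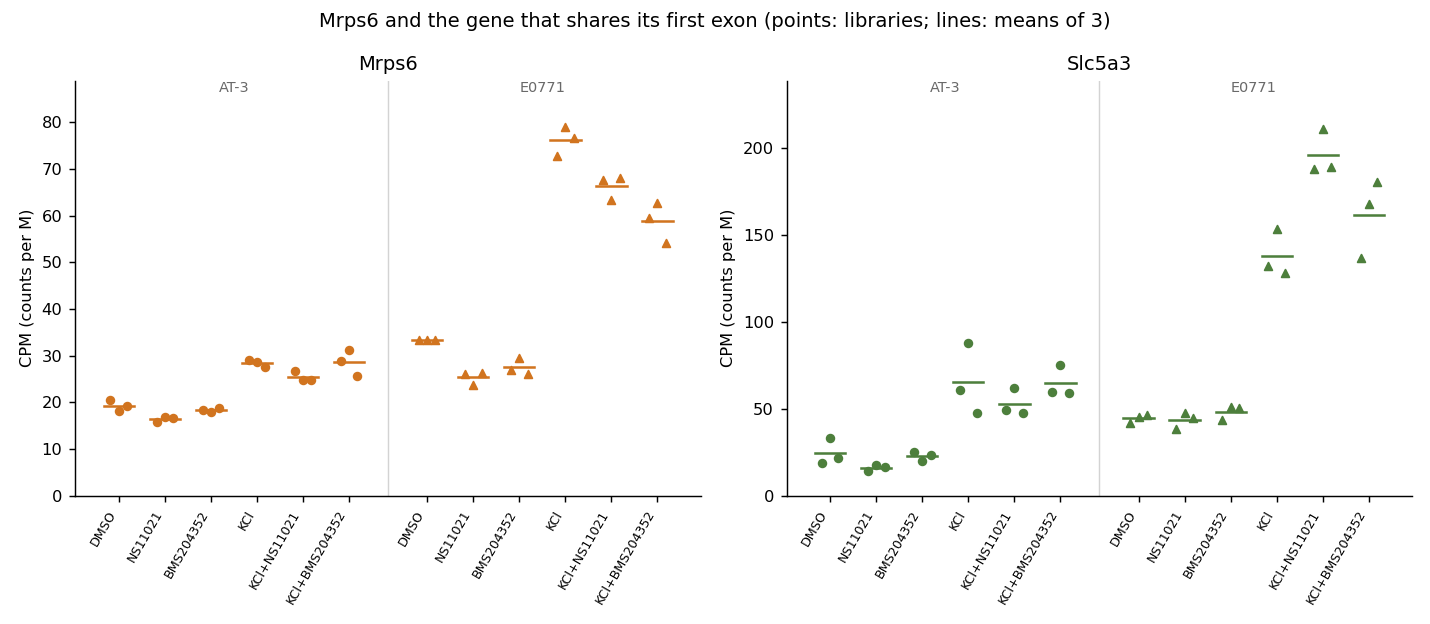
CPM by library of Mrps6 and of Slc5a3, which shares its first exon (circles AT-3, triangles E0771; lines are means of 3 libraries). Both rise with KCl in both lines, and in E0771 the highest group is KCl for Mrps6 and KCl with NS11021 for Slc5a3.

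Exon sharing reached other members. In all 33 of the 78 genes share exon bases with another annotated gene, and 45 share none. Of the 33, 29 share bases with a gene that was itself counted. The gene that covers 88% of Mrpl53's exon bases was not. Of the 45 that share none, 27 fell and 2 rose in E0771 under KCl. Mrps25 shares 69.8% of its exon bases with Nr2c2 on the other strand, and the strand used in counting is not given in the sources used here. Mrps25 measured -0.21 ± 0.07 (log2 change) and Nr2c2 0.44 ± 0.08, so its value is uncertain, as is that of Mrps34, Mrpl53 and other genes with large overlaps.

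Over the 18 E0771 libraries, the log2 CPM of a member correlated with the mean of the others at a median r of 0.748, with Mrps22 highest (0.967). Mrps6 (-0.934), Mrpl14 (-0.814), Mrpl45 (-0.781) and Mrps21 (-0.731) were lowest. In the 18 AT-3 libraries the median r was 0.552 and Mrps6 was again lowest (-0.603). These values are descriptions, since the points share libraries and scaling. The libraries span all treatments, so r also carries the KCl changes. The lowest values in E0771 are those of the genes that rose there under KCl.

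The counts of related lists below stand beside 18.6% of all genes tested that fell and 17.8% that rose in E0771 under KCl. Of 15 translation factors 9 fell in this comparison and none of the 15 rose. Those that fell included Gfm2 (log2 change -0.72 ± 0.08), which recycles ribosomes, the elongation factor Gfm1 (-0.41 ± 0.05) and the messenger-stabilising Lrpprc (-0.41 ± 0.06). Of 26 assembly and rRNA modification genes 8 fell and 0 rose; Trub2 (-0.65 ± 0.07) and Rcc1l (-0.45 ± 0.07), which act in large subunit rRNA maturation, and Tfb1m (-0.58 ± 0.11), the small subunit rRNA methylase, had the smallest adjusted p. Of the 5 mitoribosomal genes with other names, Ptcd3 and Aurkaip1 fell and Gadd45gip1 rose. Cytosolic ribosomal protein genes gave 9 falls and 4 rises among 74 and a median log2 change of -0.01.

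Among regulators, of which only called genes are named, Myc fell (-0.54 ± 0.07) and Yy1 rose (0.46 ± 0.05). Polrmt, the mitochondrial RNA polymerase, rose by 0.23 ± 0.05 (log2 changes). The share of counts from mitochondrial DNA was 0.626 to 0.720% in DMSO and 0.678 to 0.739% in KCl, overlapping. Mitochondrial rRNA held 0% of counts in every library, so this share is that of mitochondrial protein-coding genes only. Summed over the 4 fibroblast markers, E0771 held 174 to 193 CPM in DMSO and 140 to 146 in KCl, mostly Col1a1 and Pdgfra, with Dcn and Lum at 0 counts in these 6 libraries. The 6 epithelial markers, nearly all Krt8, went from 202 to 207 CPM down to 157 to 166. Leukocyte markers, nearly all Cd68, summed to 4.83 to 5.32 CPM in DMSO and 2.72 to 3.70 CPM in KCl, and endothelial markers, mostly Pecam1, to 0.661 to 0.750 CPM and 2.01 to 4.28 CPM, without overlap. The part of these shifts in the result was not tested.

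In AT-3, KCl changed 4 of the 78 genes, against 4.83% of 14772 genes tested (3.08% higher and 1.75% lower): Mrps6 rose and Mrpl57, Mrps16 and Mrpl58 fell. All 4 had moved the same way in E0771. The median log2 change was -0.06, and 56 of 78 genes were below 0. Mrpl57, a mitochondria-specific large subunit protein, went from 37.8, 36.6 and 36.8 CPM to 26.5, 27.3 and 30.4 CPM, without overlap (log2 change -0.39 ± 0.08, edgeR adjusted p = 0.00362). Mrps16 (-0.38 ± 0.10, adjusted p = 0.0311) and Mrpl58 (-0.25 ± 0.07, adjusted p = 0.031) were nearer the threshold. Mrpl58 lost its call when any 1 of KCl replicates 1, 2 and 3 and DMSO replicates 2 and 3 was left out, and Mrps16 when any 1 of DMSO replicates 1 and 3 and KCl replicates 2 and 3 was. The count was 2 without DMSO replicate 3 or KCl replicate 3, while Mrps6 and Mrpl57 kept their calls in all 14 alternatives run.

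The KCl response of 14 genes differed between the lines (fit to all 36 libraries, E0771 minus AT-3), 12 lower and 2 higher, against 9.13% of 15969 genes (4.11% higher and 5.02% lower). Mrps22 differed by -0.47 ± 0.11 on the log2 scale (edgeR adjusted p = 0.00418); it measured 37.7, 35.3 and 33.99 CPM in AT-3 DMSO and 37.4, 31.3 and 33.99 CPM in AT-3 KCl, which overlap, while the E0771 groups did not. Mrpl35 (-0.43 ± 0.09), Mrps24 (-0.40 ± 0.09), Mrpl41 (-0.40 ± 0.12) and Mrps26 (-0.39 ± 0.10) followed. Mrps6 and Mrpl14 (0.39 ± 0.12) had the larger rise in E0771. Of these 14 calls, those of Mrps6, Mrps22, Mrpl35 and Mrps24 held in all 20 alternatives run, and that of Mrpl41 was lost in 11. Of the 44 genes that fell in E0771, 35 had a log2 change below 0 in AT-3. The count of 14 fell to 6 without AT-3 KCl replicate 1 or without E0771 KCl replicate 2, and was 7 to 9 without E0771 DMSO replicate 1, 2 or 3, AT-3 DMSO replicate 2 or AT-3 KCl replicate 3.

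**Figure D5:**
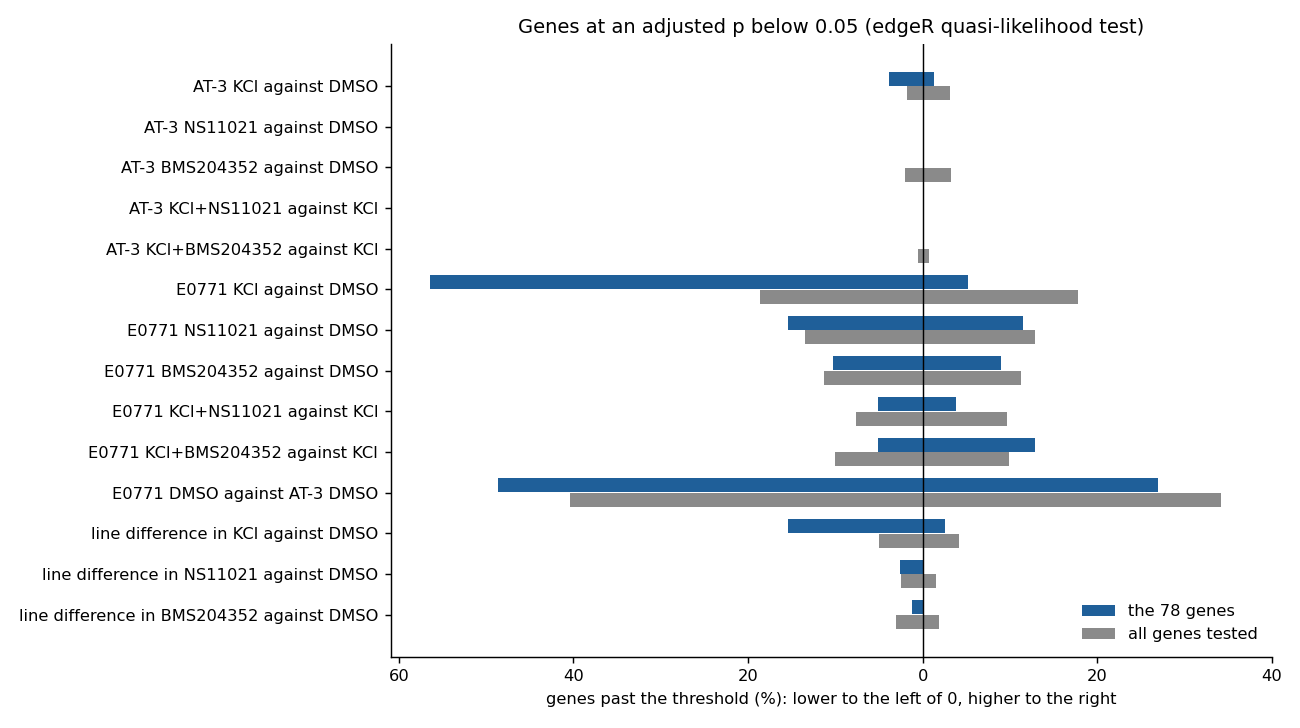
Genes past the threshold in each comparison, as a percentage of the 78 genes (blue) and of all genes tested (grey), lower to the left and higher to the right of 0. The bar of the 78 genes reaches beyond that of all genes on the lower side for KCl in E0771 (56.4% against 18.6%).

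The channel openers alone moved some genes either way in E0771. With NS11021, 9 genes rose and 12 fell, against 26.3% of all genes (12.8% higher and 13.5% lower). With BMS204352, 7 rose and 8 fell, against 22.7% (11.3% higher and 11.3% lower). Both shares, 26.9% and 19.2% of the members, are near the background. The comparisons share their DMSO libraries, so the values are given side by side. Mrps10 measured 43.5, 40.8 and 39.7 CPM in DMSO, 57.7, 54.5 and 50.9 CPM with NS11021 and 52.6, 50.5 and 55.4 CPM with BMS204352. Neither compound group overlapped DMSO, and the log2 changes were 0.39 ± 0.07 (adjusted p = 6.75e-05) and 0.36 ± 0.07 (adjusted p = 0.000291).

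Mrpl49, a mitochondria-specific large subunit protein, was lower: 69.1, 70.8 and 69.6 CPM in DMSO, 54.3, 49.1 and 54.5 CPM with NS11021, and 56.7, 54.2 and 52.0 CPM with BMS204352. All 6 compound libraries were below DMSO, at log2 changes of -0.41 ± 0.06 (adjusted p = 2.69e-06) and -0.36 ± 0.06 (adjusted p = 2.94e-05). Of Mrpl49's exon bases 4.85% lie over Syvn1 on the other strand, which fell too (-0.37 and -0.17). Mrps6 measured 26.1, 23.8 and 26.2 CPM with NS11021 and 27.0, 29.5 and 26.0 CPM with BMS204352, each below its DMSO libraries (log2 changes -0.39 and -0.27, both past the threshold); Slc5a3 did not pass the test with either compound alone (adjusted p = 0.88 and 0.484). Mrpl18 (-0.43 and -0.36), Mrpl20 (-0.35 and -0.24) and Mrpl34 (-0.25 and -0.36) fell and Mrpl57 (0.28 and 0.33), Mrps30 (0.22 and 0.27) and Mrpl23 (0.24 and 0.25) rose with NS11021 and BMS204352 in turn. The cytosolic ribosomal protein genes gave 41 and 44 rises among 74 and 0 falls in the same comparisons. Leukocyte markers summed to 4.83 to 5.32 CPM in DMSO, 14.3 to 15.5 CPM with NS11021 and 11.4 to 11.98 CPM with BMS204352, and their part in the result was not tested.

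Without E0771 BMS204352 replicate 3, the library with the lowest subunit ratio, the count for BMS204352 fell from 15 to 8 (4 higher and 4 lower). Without NS11021 replicate 2 the count for NS11021 fell from 21 to 11, and without DMSO replicate 3 to 12.

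Added to KCl in E0771, the openers moved some genes either way, and the share of counts stayed below that in DMSO, as given above. KCl with NS11021 against KCl gave 3 rises and 4 falls, against 17.2% of all genes tested (9.59% higher and 7.66% lower), and KCl with BMS204352 gave 10 rises and 4 falls, against 19.9% (9.85% higher and 10.1% lower). Both comparisons use the same KCl libraries. The 14 calls for BMS204352 on KCl compare with 15 for BMS204352 alone, both near the share of all genes. The 7 calls for NS11021 on KCl compare with 21 for NS11021 alone. Mrps10 measured 28.9, 28.9 and 30.4 CPM in KCl, 35.1, 33.1 and 39.8 CPM with NS11021 added and 38.7, 41.3 and 39.7 CPM with BMS204352 added. Both groups lay above KCl (log2 changes 0.30 ± 0.07 and 0.43 ± 0.07). Mrpl44 rose from 16.4, 18.5 and 18.6 CPM to 24.5, 23.0 and 22.8 CPM with BMS204352 (log2 change 0.38 ± 0.08, edgeR adjusted p = 0.00129), and in the NS11021 group its log2 change was 0.19 ± 0.08 (adjusted p = 0.113). Wdfy1, which overlaps Mrpl44, rose with both (0.36 and 0.43 with BMS204352 and NS11021). Mrpl41 rose with NS11021 (0.29 ± 0.08) and had a log2 change of 0.23 (95% interval 0.06 to 0.40, adjusted p = 0.0533) with BMS204352. Of the genes that rose under KCl, Mrps6 (-0.38), Mrps21 (-0.24) and Mrpl14 (-0.21) fell when BMS204352 was added. The Mrps6 call held in all 14 alternatives run. That of Mrps21 was lost without KCl replicate 1 or KCl with BMS204352 replicate 3. That of Mrpl14 was lost in 7, among them leaving out KCl replicate 1, 2 or 3, or KCl with BMS204352 replicate 2 or 3. The mitochondrial DNA share was 0.789 to 1.03% in KCl with BMS204352, above the KCl libraries, and its part in the result was not tested.

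These counts could fall when 1 library was left out, which also leaves fewer libraries in its group. The 14 genes for KCl with BMS204352 became 8 without KCl replicate 2, 9 (4 higher and 5 lower) without KCl with BMS204352 replicate 1, and 9 without its replicate 3. The 7 for KCl with NS11021 became 4 without KCl replicate 1 or 2, and 3 without any 1 of the NS11021 libraries in KCl. No interaction of KCl with either opener passed the test in E0771 by edgeR (0 of 78, against 0.217% of all genes for NS11021 and 1.62% for BMS204352). DESeq2 gave 0 and 1. At an unadjusted p below 0.05 edgeR gave 4 and 7 of the 78, which cannot be set against the shares at the adjusted threshold. A missed call does not show that an interaction is absent.

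In AT-3 none of the 78 genes passed the test with either opener, alone or on KCl, by edgeR. At the adjusted threshold the shares of all genes were 0.0745% for NS11021, 5.27% for BMS204352, 0.0203% for KCl with NS11021 and 1.24% for KCl with BMS204352. DESeq2 called 0, 1, 0 and 1 of the 78 in that order. At an unadjusted p below 0.05 edgeR gave 3, 8, 2 and 9 of the 78. These looser counts cannot be set against the shares at the adjusted threshold. AT-3 BMS204352 replicate 3 stood apart on the first principal component (65.9, against 17.2 and 22.1 in the other libraries of its group), and so did KCl with BMS204352 replicate 3 (30.1, against -3.16 and 1.31). Leukocyte markers summed to 22.4 CPM in the former, 8.43 and 8.63 CPM in the other BMS204352 libraries and 4.34 to 5.55 CPM in DMSO. Without AT-3 BMS204352 replicate 3 the edgeR count for BMS204352 was again 0. Without AT-3 BMS204352 replicate 1 the edgeR count for BMS204352 was 2. The interactions also gave 0 genes with either tool, and 0% of all genes passed the adjusted threshold by edgeR. At an unadjusted p below 0.05 edgeR gave 0 of the 78 for NS11021 and 3 for BMS204352.

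Between the lines, the response to NS11021 differed for Mrpl49 (-0.34 ± 0.09) and Mrpl45 (-0.29 ± 0.08), against 3.99% of genes (1.49% higher and 2.5% lower), and the response to BMS204352 for Mrpl34 (-0.42 ± 0.11, adjusted p = 0.0168), against 5.01% (1.89% higher and 3.12% lower). Leaving out any 1 of the 12 libraries compared removed both NS11021 calls. For BMS204352 the count was 0 without AT-3 DMSO replicate 2 or E0771 BMS204352 replicate 3, 3 without E0771 BMS204352 replicate 2, and 2 without E0771 DMSO replicate 1, AT-3 DMSO replicate 3 or AT-3 BMS204352 replicate 3.

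In DMSO, 38 of the 78 genes were lower and 21 higher in E0771 than in AT-3, against 74.5% of all genes that differed (40.4% lower and 34.1% higher). The median log2 difference was -0.20 over the 78 genes and -0.09 over all genes. Large subunit genes gave 27 lower and 10 higher, and small subunit genes 11 and 11. Mrpl53, a mitochondria-specific protein, measured 38.2, 33.8 and 35.01 CPM in AT-3 and 10.8, 12.7 and 12.2 CPM in E0771, without overlap. Its log2 difference was -1.59 ± 0.10 (edgeR adjusted p = 7.28e-16), though 88% of its exon bases lie in a second annotated gene, which was not itself counted. Mrpl27 (-1.21 ± 0.09), Mrpl54 (-1.11 ± 0.07), Mrpl24 (-1.10 ± 0.09), Mrps36 (-1.09 ± 0.09), Mrpl45 (-1.08 ± 0.06), Mrpl58 (-1.08 ± 0.08) and Mrps24 (-1.03 ± 0.06) followed, and these 8 genes stood at 0.333 to 0.491 times the AT-3 level.

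Higher in E0771 were Mrps6 (0.79 ± 0.07), Mrps31 (0.64 ± 0.09) and Mrpl2 (0.61 ± 0.05, log2 difference). Mrpl2, the counterpart of bacterial L2 near the site of peptide bond formation, measured 85.4, 89.8 and 88.1 CPM in E0771 and 58.5, 54.8 and 58.7 CPM in AT-3, which do not overlap. Of the 8 genes named as lower, Mrpl58 and Mrps24 also fell under KCl in E0771, Mrpl45 rose, and the others did not pass the test there.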

How the data were processed

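The data are gene counts of 36 bulk RNA-seq libraries (polyA-selected, NuGen Universal Plus mRNA kit, per the labels' protocols), 3 in each of 12 groups. The deposited table holds raw counts per Ensembl gene. STAR and featureCounts on GRCm38 are named per the submitters' processing notes, with no version; the sources used here do not give the strand setting or how mates were handled, and 84.5% of counts from 1 to 10 were even. Symbols and exon lengths came from GENCODE vM21 (127 IDs without a symbol held 0.0415% of counts) and promoter sequences from RefSeq.

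Counts were fitted with edgeR 4.0.16 (R 4.3.3; TMM, robust quasi-likelihood, filterByExpr with a minimum count of 10 and total of 15), per line over 18 libraries, and over all 36 for differences between lines. Adjusted p-values (Benjamini-Hochberg over all genes tested) were called below 0.05 in 18 comparisons. CPM is per library total; changes are log2 ± SE. The members and lists were chosen with earlier results of these data known. Named genes were called members with the smallest adjusted p (up to 10 per direction), the 3 highest and lowest per subunit, 15 members of known role, and up to 4 called genes per related list; overlapping genes and promoters were chosen after their values were seen. On simulated counts for KCl in E0771, 34.3% of genes changed 1.2-fold, 89.6% of those changed 1.5-fold and 100% of those changed 2-fold were recovered. There were 11 false calls among 12906 genes. In AT-3 the recovered shares were 0%, 59.7% and 100%, with 7 false calls among 14232 genes. Only 67, 67 and 66 genes in turn were changed, all well counted, and every gene had the same spread within a line. More genes were called in the real KCl data of both lines, so these shares do not give the recovery there. Alternatives were DESeq2 1.42.0, its size factors in edgeR, other filters, halved counts, a replicate block, subsets of libraries and leaving out each library.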

Additional observations from a re-analysis of the deposited data

Results flagged for a closer look

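These genes passed a test of the difference in response between the 2 lines (E0771 minus AT-3, log2 scale, edgeR over all 36 libraries); each effect within a line is given from that line's own fit, so the 2 need not subtract exactly. Under KCl, Mrps6 by 0.63 (adjusted p = 4.68e-05; 1.203 in E0771 and 0.57 in AT-3), Mrps24 by -0.40 (adjusted p = 0.00203; -0.39 in E0771 and 0.01 in AT-3), Mrpl35 by -0.43 (adjusted p = 0.00267; -0.32 in E0771 and 0.10 in AT-3) differed. The response to KCl also differed for Mrps22 by -0.47 (adjusted p = 0.00418; -0.51 in E0771 and -0.05 in AT-3), Mrpl15 by -0.28 (adjusted p = 0.00862; -0.32 in E0771 and -0.05 in AT-3), Mrpl13 by -0.30 (adjusted p = 0.00911; -0.29 in E0771 and 0.00 in AT-3). KCl effects differed as well for Mrps26 by -0.39 (adjusted p = 0.00965; -0.55 in E0771 and -0.17 in AT-3), Mrpl37 by -0.31 (adjusted p = 0.0157; -0.32 in E0771 and -0.01 in AT-3), Mrpl41 by -0.40 (adjusted p = 0.0341; -0.58 in E0771 and -0.19 in AT-3). The response to KCl also differed for Mrpl14 by 0.39 (adjusted p = 0.0354; 0.41 in E0771 and 0.02 in AT-3), Mrps30 by -0.34 (adjusted p = 0.0377; -0.11 in E0771 and 0.22 in AT-3), Mrpl19 by -0.31 (adjusted p = 0.0414; -0.28 in E0771 and 0.02 in AT-3). KCl effects differed as well for Mrpl32 by -0.38 (adjusted p = 0.0445; -0.36 in E0771 and 0.01 in AT-3), Mrpl16 by -0.30 (adjusted p = 0.0466; -0.16 in E0771 and 0.13 in AT-3). With NS11021, Mrpl49 by -0.34 (adjusted p = 0.0303; -0.41 in E0771 and -0.08 in AT-3) and Mrpl45 by -0.29 (adjusted p = 0.0366; -0.17 in E0771 and 0.11 in AT-3) differed. With BMS204352, Mrpl34 by -0.42 (adjusted p = 0.0168; -0.36 in E0771 and 0.05 in AT-3) differed. Of the 20 alternatives run for each, the KCl calls of Mrps6, Mrps22, Mrpl35 and Mrps24 were lost in 0, those of Mrpl13, Mrpl15 and Mrps26 in 2, Mrpl14 in 4, Mrpl37 in 6, Mrpl41 in 11, Mrps30 in 13, Mrpl19 and Mrpl32 in 16, and Mrpl16 in 17. The NS11021 calls of Mrpl49 and Mrpl45 were lost in 13 and 16, and the BMS204352 call of Mrpl34 in 4.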

How the results depend on the processing

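Counts of called genes were recomputed under 294 combinations of comparison and alternative. Of these, 239 stayed within 1.5 times the reported count, 41 were lower and 14 higher, and 0 named changes reversed. The 239 include counts of 0 that stayed at 0, so they do not measure how steady the other counts were. DESeq2 called 1 gene for BMS204352 in AT-3, 1 for KCl with BMS204352 against KCl in AT-3, 1 for the interaction with BMS204352 in E0771 and 2 for the line difference in BMS204352. The E0771 interaction gave 1 when replicate 3 was left out of both E0771 groups with BMS204352. Fitting only the libraries compared gave 8 for BMS204352 in E0771 and 0 for the line difference in BMS204352. For the line difference in NS11021, DESeq2 size factors, the filter of 1 CPM and halved counts each gave 1, and no filter gave 0; for that in BMS204352, the filter of 1 CPM and halved counts gave 2; for that in KCl, no filter gave 6. Leaving out 1 library gave 2 to 3 for KCl in AT-3, 0 to 2 for BMS204352 in AT-3, 40 to 45 for KCl, 11 to 15 for NS11021 and 8 to 20 for BMS204352 in E0771, 3 to 5 and 8 to 14 for NS11021 and BMS204352 on KCl, 0 to 1 for the BMS204352 interaction, 55 to 59 between lines in DMSO, and 6 to 11, 0 to 0 and 0 to 3 for the line differences in KCl, NS11021 and BMS204352. The labels do not say that replicate numbers pair libraries, and no correlation passed 0.1: same-numbered libraries correlated at -0.0325 to 0.0925 over 30 pairs, and 19 of 30 were closest to their own number, 13 of them in AT-3, a hint from the data and not from the design. With a replicate block the counts were 48 for KCl in E0771, 4 for KCl in AT-3, 21, 17, 7 and 16 for NS11021, BMS204352 and each on KCl in E0771, 60 between lines, and 15, 2 and 2 for the line differences. Changes near 1.2-fold were the hardest to recover in simulated counts; the biological CV was 0.116 in AT-3, the deeper set, and 0.0707 in E0771.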
